A study of Mus musculus with 6 samples.

Results

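The genes described here are *Cdh16*, which encodes Ksp-cadherin, and 7 genes that mark the thick ascending limb of the loop of Henle, *Slc12a1*, *Umod*, *Kcnj1*, *Bsnd*, *Cldn16*, *Cldn19* and *Casr*. They were chosen by name, through the Ensembl identifiers that GENCODE M21 gives to these symbols, and make up 8 of the 54532 genes in the deposited table. All 8 had enough counts to be tested. RNA was sequenced from whole kidneys of male mice on a C57BL/6 background in 6 libraries, 3 per group, and each library was a pool of 3 mice. Control mice carried KsprtTA, in which the *Cdh16* promoter drives the doxycycline-dependent activator rtTA, and no adiponectin transgene. KSPAPN mice carried KsprtTA together with TRE-Adiponectin, the adiponectin gene behind a promoter that rtTA switches on. The transgenic activator and chow with doxycycline at 600 mg/kg for 4 days were thus common to both groups, and the adiponectin transgene was not. The Control genotype is given as WT in the deposited labels, which also name kidney as the tissue but liver in the note on RNA extraction. KsprtTA is active along the tubule, collecting duct and proximal tubule included, so the transgene was not limited to the thick ascending limb. The age of the mice was not given in the sources used here.

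Total counts on genes ranged from 17183358 to 20871173 over the 6 libraries. *Adipoq*, the overexpressed gene, had 2, 0 and 2 counts in the Control libraries and 24629, 17483 and 26811 in the KSPAPN libraries, so every library matched its label. Summed FPKM (a level scaled by gene length and by the size of the library) of 10 proximal tubule genes was between 2677 and 3491 in all 6 libraries, and that of 5 hepatocyte genes was between 8.85 and 21.8. RNA came from whole kidney, so that fewer cells of a type and less RNA per cell cannot be told apart in any value below. As the libraries are pools, the p-values measure the spread between pools and not between mice.

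The thick ascending limb reabsorbs sodium chloride without water and so dilutes the tubular fluid and builds the medullary salt gradient. *Slc12a1* encodes NKCC2, the apical sodium-potassium-chloride cotransporter that furosemide blocks. *Kcnj1* encodes the potassium channel ROMK, which returns potassium to the lumen, and *Bsnd* encodes barttin, a subunit that chloride channels of the basolateral membrane need. The voltage that arises drives calcium and magnesium between the cells through a pore that claudin-16 and claudin-19, the products of *Cldn16* and *Cldn19*, form in the tight junction. The calcium-sensing receptor, from *Casr*, restrains this transport when blood calcium is high. *Umod* encodes uromodulin, the most abundant protein of normal urine, which the thick ascending limb secretes. Ksp-cadherin is a cadherin of tubular epithelia along the nephron that lacks the catenin-binding tail of the classical cadherins. Because its promoter is kidney-specific, it is a common driver of transgenes in renal tubules.

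Promoter windows of 6 of the 8 genes, *Slc12a1*, *Umod*, *Kcnj1*, *Cldn16*, *Cldn19* and *Casr*, were found in the RefSeq table of GRCm38.p6. The 250 bases before the RefSeq start are shown for *Slc12a1*, the gene among the 8 that differed between groups, and for *Umod*, the one with the highest level. The *Slc12a1* window is chr2:125152350-125152599 on the plus strand and the *Umod* window is chr7:119479263-119479512 on the minus strand. GENCODE M21, the source of the gene coordinates below, starts *Slc12a1* at 125152505 and *Umod* at 119479282. Both starts lie inside these windows, so the last bases of each window are within the gene as GENCODE places it. Capitals mark matches to CCAAT, a promoter motif found near many start sites.
Slc12a1: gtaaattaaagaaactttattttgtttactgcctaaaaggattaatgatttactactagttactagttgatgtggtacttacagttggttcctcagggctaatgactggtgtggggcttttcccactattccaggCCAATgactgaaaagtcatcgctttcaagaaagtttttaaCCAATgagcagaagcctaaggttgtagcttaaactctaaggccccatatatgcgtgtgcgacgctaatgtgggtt
Umod: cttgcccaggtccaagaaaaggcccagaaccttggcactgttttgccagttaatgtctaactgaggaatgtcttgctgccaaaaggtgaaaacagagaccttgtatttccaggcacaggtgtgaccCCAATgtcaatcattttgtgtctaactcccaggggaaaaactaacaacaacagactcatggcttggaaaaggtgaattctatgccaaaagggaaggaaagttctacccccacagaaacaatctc

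Both strands of each window were searched for these letters and for TATAAA. The letters CCAAT occurred at -115 to -111 and at -75 to -71 of *Slc12a1*, counted back from the RefSeq start. They also occurred at -124 to -120 of *Umod* and at -135 to -131 of *Kcnj1*. Of 32851 RefSeq windows of the same length, 33.8% held them. The match at -75 to -71 of *Slc12a1* lies past its GENCODE start. The whole *Kcnj1* window lies inside the *Kcnj1* gene as GENCODE places it. None of the 6 genes had TATAAA, which 12.4% of all windows held. The window of *Slc12a1* had a GC content of 39.6% and that of *Umod* 45.2%. No binding was measured in these samples.

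*Slc12a1* was the one gene of the 8 that passed the test. It rose to 1.43-fold in KSPAPN kidneys, while *Cdh16* was 14.6% lower and did not pass, and the estimates for the other 6 genes lay between -0.19 and 0.17 on the log2 scale. By edgeR's quasi-likelihood test at an adjusted p under 0.05, 1 of the 8 genes was higher and 0 were lower, and over all 16017 genes tested 0.393% were higher and 2.25% were lower, 2.65% in all. At an unadjusted p under 0.05, 1 was higher and 1 was lower, against 7.52% and 11.2% of all genes, 18.7% in both directions. At an adjusted p under 0.05, DESeq2 called 1 of the 8, again *Slc12a1*, and 6.52% of the 14165 genes to which it gave an adjusted p. The 8 genes had a median of -0.044 on the log2 scale, and all genes tested one of 0.012. Of the 8 estimates 3 were above 0, as were 51.9% of those of all genes, and 5 were below, although those of *Umod* and *Cldn19* changed sign when only total counts were used for scaling.

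**Figure D1:**
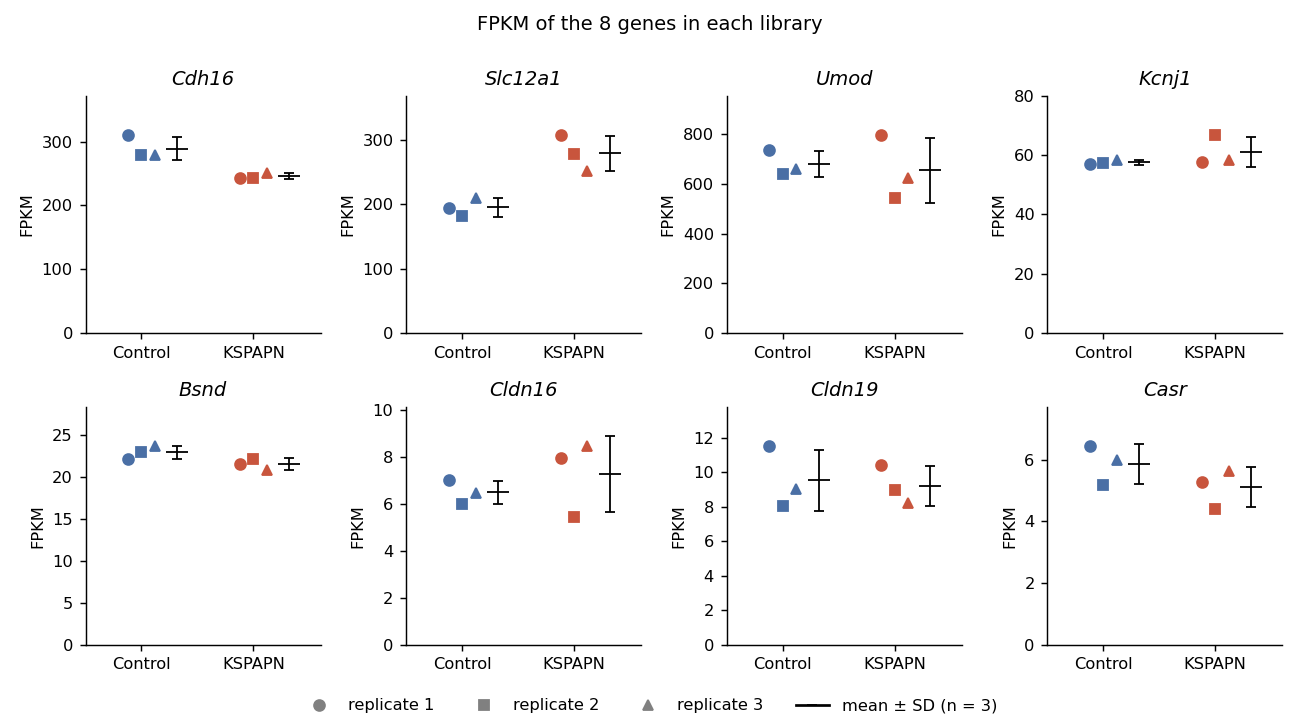
FPKM of each of the 8 genes (one panel a gene, each with its own axis) in the 3 Control and the 3 KSPAPN libraries, with marker shapes for the replicate number and bars for the mean and SD (n = 3). The 3 KSPAPN points of *Slc12a1*, from 252 to 307, lie above the 3 Control points, those of *Cdh16*, from 242 to 251, lie below them, and in the other 6 panels the groups overlap.

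*Cdh16* (ENSMUSG00000031881, chr8:104601911-104624396, minus strand, GRCm38) had 309.8, 278 and 278 FPKM in the Control libraries and 244, 242 and 251 in the KSPAPN libraries. The groups did not overlap, and the KSPAPN libraries lay closer together than the Control libraries, with a coefficient of variation of 1.99% against 6.29%. The mean was 289 ± 18.2 FPKM in Control and 246 ± 4.89 in KSPAPN (SD, n = 3). The log2 fold change was -0.23 (SE 0.10, 95% interval -0.44 to -0.016), with an unadjusted p of 0.0377 and an adjusted p of 0.236 (edgeR). An exact permutation test of the FPKM means, two-sided, gave p = 0.1, the smallest that 3 libraries against 3 allow. Over all genes tested, the groups did not overlap for 13.5% of genes in this direction and for 10.8% in the other. Between 16798 and 21774 reads lay behind each value.

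The level of *Cdh16* can be read beside that of the transgene its promoter controls. *Adipoq* reached 766, 693 and 937 FPKM in the KSPAPN libraries, which was 3.14, 2.86 and 3.73 times the FPKM of *Cdh16* in the same libraries. The order of the libraries by *Cdh16*, with replicate 3 highest and replicate 2 lowest, was also their order by *Adipoq*. Replicates 1 and 2 were close in *Cdh16*, however, with 244 and 242 FPKM, and a relation between the 2 genes was not tested. With 3 libraries no correlation was computed. rtTA is not a gene of the deposited table, and its level was not analysed here.

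*Slc12a1* (ENSMUSG00000027202, chr2:125152505-125230002, plus strand) had 195, 182 and 211 FPKM in Control and 307, 278 and 252 in KSPAPN. The groups did not overlap, with KSPAPN the higher, and the gap between the groups, from 211 to 252, was wider than the range within Control. The mean was 196 ± 14.5 FPKM in Control and 279 ± 27.6 in KSPAPN (SD, n = 3). The log2 fold change was 0.52 (SE 0.11, 95% interval 0.27 to 0.77) with an adjusted p of 0.0437 by edgeR, and the exact permutation test of the means gave p = 0.1. With noncoding genes left out, *Slc12a1* stood at place 184 by its mean level in Control and at place 94 in KSPAPN. The call stood close to the threshold. It was lost without any 1 of 5 libraries, with an adjusted p of 0.193, 0.143 and 0.0744 without Control replicates 1, 2 and 3 and of 0.0868 and 0.0944 without KSPAPN replicates 2 and 3, while the log2 fold change stayed between 0.45 and 0.59. The antisense gene Gm14002 overlaps *Slc12a1* and had 4 to 37 counts per library against at least 18172 on *Slc12a1*.

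*Kcnj1* (ENSMUSG00000041248, chr9:32372493-32399197, plus strand), whose channel works beside NKCC2 in the apical membrane, had 57.0, 57.3 and 58.5 FPKM in Control and 57.8, 66.7 and 58.4 in KSPAPN. The coefficient of variation was 1.37% in Control and 8.16% in KSPAPN, and KSPAPN replicate 2 alone lay above the rest. The log2 fold change was 0.087 (SE 0.088, 95% interval -0.11 to 0.28, adjusted p = 0.647 by edgeR). The upper end of that interval lies just above the lower end of the interval for *Slc12a1*, 0.27, so the intervals overlap. *Kcnj1* is also expressed in the cortical collecting duct, so a whole-kidney value is not that of the thick ascending limb alone.

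*Bsnd* (ENSMUSG00000025418, chr4:106483456-106492283, minus strand) had 22.2, 22.9 and 23.6 FPKM in Control and 21.5, 22.2 and 20.8 in KSPAPN. The groups overlapped narrowly, and in both the coefficient of variation was small, 3.18% and 3.28%. The log2 fold change was -0.086 (SE 0.083, 95% interval -0.27 to 0.099, adjusted p = 0.629 by edgeR). Barttin is made in intercalated cells as well.

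*Umod* (ENSMUSG00000030963, chr7:119462711-119479282, minus strand) had the highest level of the 8 genes, with 737, 638 and 658 FPKM in Control and 795, 542 and 623 in KSPAPN. Both the highest and the lowest of the 6 values were in KSPAPN libraries, and the coefficient of variation there was 19.7% against 7.76% in Control. The mean was 678 ± 52.6 FPKM in Control and 653 ± 129 in KSPAPN (SD, n = 3), and the log2 fold change was -0.045 (SE 0.15, 95% interval -0.37 to 0.28, adjusted p = 0.903 by edgeR). KSPAPN replicate 1, the highest library for *Umod*, was also the highest for *Slc12a1* and for the collecting duct water channel gene *Aqp2* (537 FPKM, against 227 to 356 in the other 5 libraries) and the lowest for *Slc12a3* (55.2 FPKM), and it had the largest total count. Without it the log2 fold change was -0.20 for *Umod* and 0.45 for *Slc12a1*, and *Slc12a1* kept its call. The part of this library in the results was otherwise not tested.

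Of the pair of claudins, *Cldn16* (ENSMUSG00000038148, chr16:26463135-26482765, plus strand) had 6.99, 5.997 and 6.45 FPKM in Control and 7.94, 5.41 and 8.43 in KSPAPN. The KSPAPN libraries lay on both sides of the Control libraries, and 116 to 217 reads per library, the fewest of the 8 genes, were behind these values. The log2 fold change was 0.17 (SE 0.20, 95% interval -0.27 to 0.62, adjusted p = 0.693 by edgeR). *Cldn19* (ENSMUSG00000066058, chr4:119255414-119262438, plus strand) had 11.5, 8.06 and 9.05 FPKM in Control and 10.5, 8.97 and 8.20 in KSPAPN. The highest and the lowest value were both in Control. Its log2 fold change was -0.044 (SE 0.14, 95% interval -0.36 to 0.28, adjusted p = 0.903 by edgeR). The antisense gene Gm12927 overlaps *Cldn19* and had 5 to 18 counts per library. Strandedness was not given in the sources used here, so reads of a gene and its antisense partner cannot be told apart.

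*Casr* (ENSMUSG00000051980, chr16:36493696-36562141, minus strand) had 6.43, 5.17 and 5.99 FPKM in Control and 5.28, 4.39 and 5.65 in KSPAPN. The lowest value was in KSPAPN and the highest in Control, with overlap between. The log2 fold change was -0.19 (SE 0.14, 95% interval -0.49 to 0.11, adjusted p = 0.485 by edgeR). *Cldn14*, a claudin that the calcium-sensing receptor is known to induce in this segment, had 2, 3 and 0 counts in Control and 10, 0 and 1 in KSPAPN, too few to be tested.

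On FPKM, which is scaled by gene length, the 8 genes spanned from *Umod* to *Casr* in both groups. In Control the order was *Umod*, *Cdh16*, *Slc12a1*, *Kcnj1*, *Bsnd*, *Cldn19*, *Cldn16* and *Casr*, and each gene's libraries were all above those of the next, except that *Cldn16* and *Casr* overlapped. In KSPAPN *Slc12a1* stood above *Cdh16*, by 1.14-fold in the means and by less than 1 FPKM between the nearest libraries, and *Cldn19* overlapped with *Cldn16* and *Cldn16* with *Casr*. The rest of the order was shared. Summed over the 8 genes, the level was between 1197 and 1346 FPKM in Control and between 1170 and 1449 in KSPAPN. The median coefficient of variation over the 8 genes was 7.54% in Control and 11.2% in KSPAPN.

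Ratios between genes of 1 library do not depend on how libraries are scaled. They were not corrected for the GC content of the transcripts, which was 56.1% for *Cdh16* and 45.5% for *Slc12a1*. *Cdh16* was 1.59, 1.53 and 1.32 times *Slc12a1* in the Control libraries and 0.792, 0.871 and 0.997 times in the KSPAPN libraries. The ratio was thus above 1 in every Control library and below 1 in every KSPAPN library, and its mean log2 was 0.56 ± 0.14 in Control and -0.18 ± 0.17 in KSPAPN (SD, n = 3; exact permutation test, two-sided, p = 0.1, the smallest possible). The geometric mean of *Umod* to *Slc12a1* was 3.46 in Control and 2.32 in KSPAPN, and that of *Kcnj1* to *Slc12a1* was 0.295 and 0.219. Both were lower in every KSPAPN library than in every Control library, each with an exact permutation p of 0.1. These 3 ratios share *Slc12a1* and are not separate results. The ratio of *Cldn16* to *Cldn19* differed by 0.18 on the log2 scale, with overlap between groups and an exact permutation p of 0.5. The ratio of *Slc12a1* to *Slc12a3*, the thiazide-sensitive cotransporter of the next segment, was chosen after its values were seen. It was 2.16, 2.08 and 2.21 in Control and 5.57, 3.92 and 2.95 in KSPAPN, higher in every KSPAPN library.

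**Figure D2:**
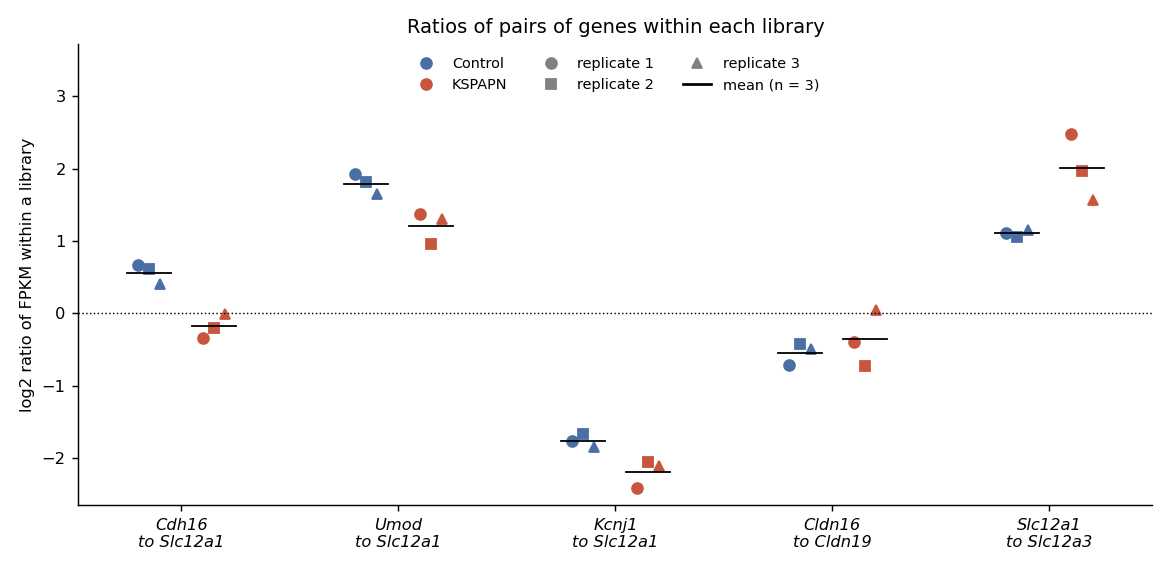
Log2 ratio of the FPKM of gene pairs within each library (points, with marker shapes for the replicate number) for Control and KSPAPN. The ratios of *Cdh16*, *Umod* and *Kcnj1* to *Slc12a1* are lower in all 3 KSPAPN libraries, that of *Slc12a1* to *Slc12a3* is higher in all 3, and the groups overlap for *Cldn16* to *Cldn19*.

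Among 26 other genes of the thick ascending limb, 24 had enough counts to be tested. Their median log2 fold change was 0.026, with 13 above 0 and 11 below. By edgeR at an adjusted p under 0.05, 0 were called higher and 1 lower, against 0.393% and 2.25% of all genes tested. *Pth1r*, the receptor for parathyroid hormone, was the gene that fell. It had 245, 234 and 225 FPKM in Control and 167, 168 and 165 in KSPAPN, with no overlap, and its log2 fold change was -0.49 (SE 0.088, adjusted p = 0.0222). The call was lost without any library other than KSPAPN replicate 1, with adjusted p of 0.116, 0.0715 and 0.0523 without Control replicates 1, 2 and 3 and of 0.0608 and 0.118 without KSPAPN replicates 2 and 3. At an unadjusted p under 0.05, 4 of the 24 were lower and 0 were higher, against 11.2% and 7.52% of all genes tested. Beside *Pth1r* the lower genes were *Cldn10*, *Fxyd2* and *Hpn*. *Cldn10*, a claudin gene, had a log2 fold change of -0.41 and an adjusted p of 0.0881 (edgeR). For *Fxyd2*, a regulatory subunit of the sodium pump, these were -0.37 and 0.107. For *Hpn*, the protease hepsin that releases uromodulin from the cell surface, they were -0.35 and 0.0853. All 4 are also expressed in the proximal tubule.

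By role, the median log2 fold change was -0.11 for the 6 salt transport and energy partners, 0.045 for the 5 kinases and trafficking genes, 0.025 for the 6 tested of 7 divalent cation and junction genes, -0.19 for the 5 tested of 6 secreted and hormone-related genes and 0.18 for the 2 macula densa genes. The WNK-SPAK/OSR1 kinases phosphorylate and activate NKCC2. *Oxsr1*, which encodes OSR1, had 11.1 ± 0.376 FPKM in Control and 12.5 ± 0.507 in KSPAPN without overlap (log2 fold change 0.18, adjusted p = 0.277 by edgeR). The groups were apart in this direction for 10.8% of all genes tested. *Stk39*, which encodes SPAK, had 6.56 ± 0.486 and 6.53 ± 0.944 (SD, n = 3). The log2 fold change was 0.045 for *Wnk1* and 0.0076 for *Wnk4*. *Egf*, the precursor of epidermal growth factor made in this segment and the next, had 89.2 ± 9.83 FPKM in Control and 78.0 ± 7.47 in KSPAPN (log2 fold change -0.19, adjusted p = 0.419). *Oxsr1*, *Stk39*, *Wnk1* and *Wnk4* were named after their values were seen.

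**Figure D3:**
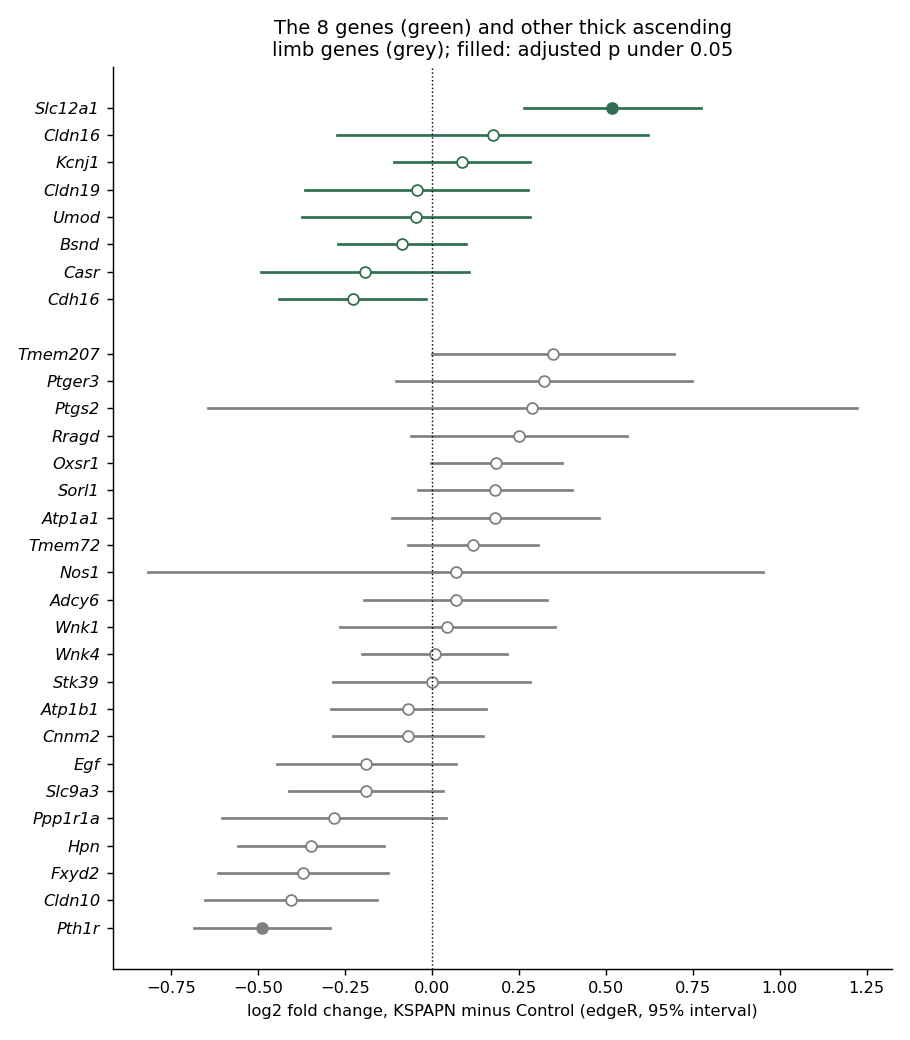
Log2 fold change (KSPAPN minus Control, edgeR) with its 95% interval for the 8 genes (green) and other thick ascending limb genes (grey), with filled points at an adjusted p under 0.05. *Slc12a1* at 0.52 and *Pth1r* at -0.49 are the filled points, and the intervals of most other genes reach across 0.

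Ksp-cadherin was compared with 9 other cadherin genes. Of these 8 were tested, 7 with an estimate above 0, and none passed at an adjusted or an unadjusted p under 0.05 by edgeR, with a median log2 fold change of 0.14. *Cdh1*, the E-cadherin of distal tubules and collecting ducts, had 44.3, 44.3 and 45.7 FPKM in Control and 49.8, 48.1 and 48.4 in KSPAPN. The KSPAPN values were thus all above the Control values, with a log2 fold change of 0.13 (SE 0.082, adjusted p = 0.43 by edgeR). *Cdh13*, the membrane-anchored T-cadherin known to bind multimeric adiponectin, had 0.339 ± 0.0496 FPKM in Control and 0.439 ± 0.0713 in KSPAPN (SD, n = 3; log2 fold change 0.38, SE 0.23, adjusted p = 0.403). *Cdh17*, the cadherin closest in structure to Ksp-cadherin, had no counts in any library. In Control, *Cdh16* was above *Cdh1*, the next highest cadherin of this list, with 289 against 44.8 FPKM.

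Of 13 transcription factors that pattern or maintain the nephron, none passed at an adjusted p under 0.05. *Irx1*, a homeobox gene of the intermediate nephron, had 31.7, 18.1 and 21.7 FPKM in Control and 15.7, 13.9 and 11.1 in KSPAPN. The groups did not overlap, and the log2 fold change was -0.81 (SE 0.20, adjusted p = 0.0602). *Ehf* and *Tfap2b*, factors of the distal nephron, had log2 fold changes of 0.44 and 0.25 with adjusted p of 0.133 and 0.158. At an unadjusted p under 0.05, 2 of the 13 were higher and 2 lower, against 7.52% and 11.2% of all genes tested. The median log2 fold change of the 13 was -0.025.

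Markers of the other parts of the kidney give the setting of these values. The median log2 fold change was -0.28 for 10 proximal tubule genes, -0.069 for 4 thin limb genes, 0.12 for 7 genes of the distal convoluted tubule, -0.20 for the 7 principal cell genes tested, -0.0065 for 7 intercalated cell genes, 0.32 for 6 podocyte genes and 0.080 for 6 endothelial genes. Single libraries moved several of these medians. Without KSPAPN replicate 3 that of the podocyte genes was 0.033, that of the distal convoluted tubule genes -0.16 and that of the thin limb genes 0.069. The podocyte median was 0.11 without Control replicate 2 and 0.47 without Control replicate 3, the distal convoluted tubule median reached 0.32 without Control replicate 3, and the thin limb median was -0.27 without KSPAPN replicate 2. With each library left out the proximal tubule median lay between -0.38 and -0.19 and the principal cell median between -0.25 and -0.14, below 0 throughout, the endothelial median between 0.014 and 0.19, and the intercalated cell median between 0.0074 and 0.094, above 0 in each case. The distal convoluted tubule median was also below 0, at -0.064, after a correction for GC content and length. The proximal tubule list had 2 genes that fell at an adjusted p under 0.05, as did 2.25% of all genes tested. These were *Slc7a13*, an amino acid transporter gene of the last proximal segment (log2 fold change -1.46, adjusted p = 0.0259 by edgeR), and *Slc22a6*, the organic anion transporter gene (-0.46, adjusted p = 0.0388). Of the 10 estimates of the list 9 were below 0, while 51.9% of those of all genes tested were above 0. With 1 library left out the adjusted p reached 0.113 for *Slc7a13* (without Control replicate 1) and 0.144 for *Slc22a6* (without Control replicate 1), and the calls were lost. *Slc34a1*, the proximal phosphate cotransporter gene, had 1212 ± 136 FPKM in Control and 1085 ± 102 in KSPAPN (SD, n = 3). In the distal convoluted tubule *Slc12a3* had 90.0, 87.5 and 95.3 FPKM in Control and 55.2, 70.9 and 85.5 in KSPAPN, all lower than in Control, with a log2 fold change of -0.36 (SE 0.14) and an adjusted p of 0.207. None of the lists for the thin limb, distal convoluted tubule, principal cells, intercalated cells, podocytes or endothelium held a gene called at an adjusted p under 0.05.

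Genes of these lists with an unadjusted p under 0.05 included *Slc13a3* (-0.49, adjusted p = 0.0503 by edgeR) and *Slc3a1* (-0.36, 0.114) in the proximal tubule, *Aqp3* (-0.32, 0.196) and *Fxyd4* (-0.38, 0.149) in principal cells, and *Slc4a1* (-0.71, 0.0893) and *Aqp6* (-0.57, 0.124) in intercalated cells. *Aqp2* had a log2 fold change of 0.19 (SE 0.29, adjusted p = 0.778) and *Nphs1*, which encodes nephrin, 0.070 (SE 0.27, adjusted p = 0.919). Markers of cells that could be carried along did not pass in any case. The median log2 fold change was 0.18 for the 2 tested of 5 adipocyte genes, whose summed level was at most 1.63 FPKM, with *Lep* at 0 in all 3 Control libraries, 0.0063 for the 4 tested of 5 hepatocyte genes and 0.031 for the 4 tested of 6 immune genes. Of 5 tubular injury genes 3 were tested, with a median of 0.14, and *Clu* had -0.40 with an adjusted p of 0.101.

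**Figure D4:**
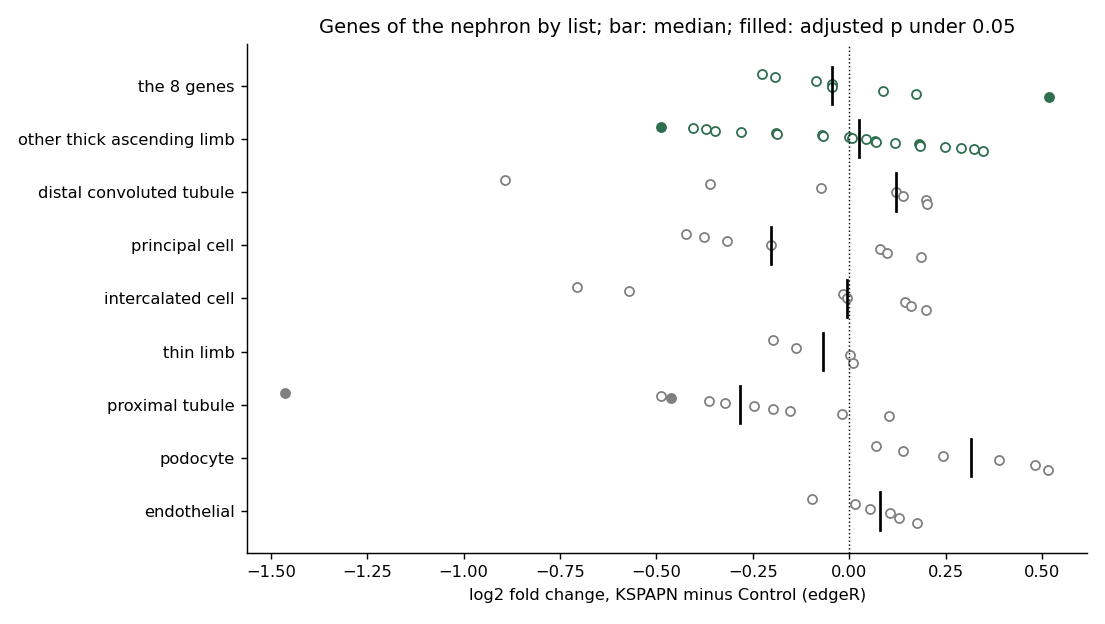
Log2 fold change (KSPAPN minus Control, edgeR) of every tested gene of each marker list (points) with the median of the list (bar). *Slc12a1* lies above the other genes of its list, and the proximal tubule list has 9 of its 10 points below 0.

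Over the 6 libraries, the log2 CPM (counts scaled to the library total as adjusted by TMM factors) of *Cdh16* and *Slc12a1* had a Pearson r of -0.85. The groups were apart in opposite directions. Among 9528 protein-coding genes with a mean CPM of at least 10, those most like *Cdh16* over the 6 libraries were *Jade2* (r = 0.994), *Tmie* (0.993), *Ciapin1* (0.993), *Ppp4r1* (0.990) and *Wdr24* (0.989), with log2 fold changes between -0.41 and -0.16 and no call by edgeR. Those most like *Slc12a1* included *Twsg1* (0.993), *Cdhr2* (0.991), *Kif3a* (0.987) and *Nuak2* (0.987). Of these *Cdhr2* (log2 fold change 0.67, adjusted p = 0.0248) and *Nuak2* (0.72, 0.0313) were called higher. The points share depth and the difference between groups, so the values are a description. None of the 8 genes was among the 5 most like *Slc12a1* or *Cdh16*.

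The direction of the estimates went with the base composition of the transcripts. The genes under a GC content of 50% in their longest transcript were *Kcnj1* (44.6%), *Slc12a1* (45.5%) and *Cldn16* (48.8%), and all 3 had an estimate above 0. *Umod* (51.5%), *Casr* (53.2%), *Cldn19* (53.8%), *Bsnd* (55.8%) and *Cdh16* (56.1%) had estimates below 0. Over all genes tested, the median log2 fold change was 0.089 for 8419 genes under 50% and -0.069 for 7585 genes at or above it, a boundary chosen after the data were seen. After a trend against GC content and length was removed from each library, these medians were 0.014 and 0.0078. In that fit *Slc12a1* had a log2 fold change of 0.43 (SE 0.12) with an adjusted p of 0.0829 by edgeR, so that it was no longer called, and *Cdh16* had -0.14 with an adjusted p of 0.42. *Umod* was at 0.021, *Kcnj1* at 0.029, *Bsnd* at -0.0014, *Cldn16* at 0.29, *Cldn19* at -0.014 and *Casr* at -0.18. *Pth1r* was at -0.31 with an adjusted p of 0.144, and its call was lost as well.

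**Figure D5:**
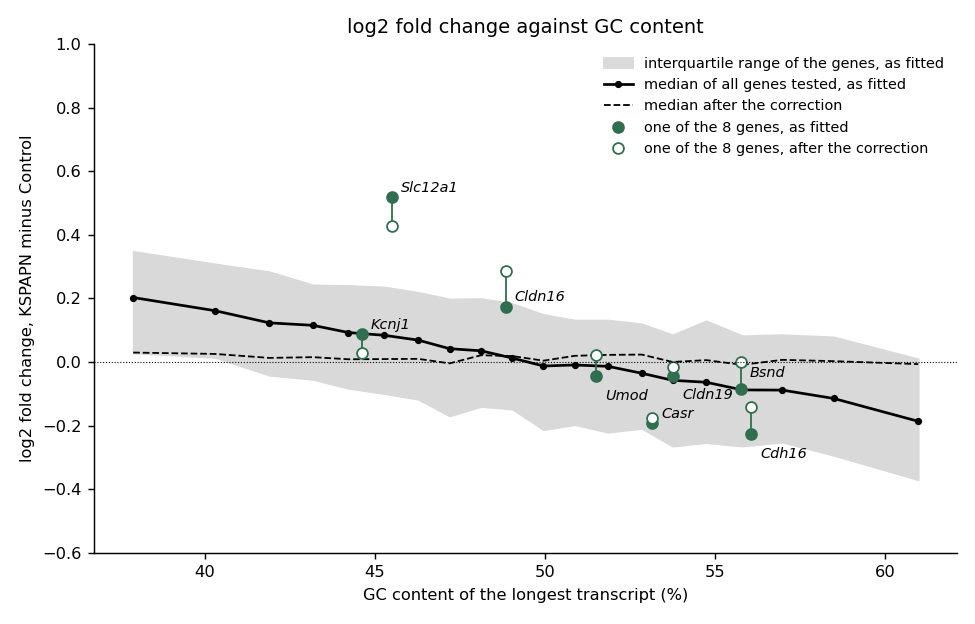
Log2 fold change (KSPAPN minus Control) against the GC content of the longest transcript in percent, with the median and the interquartile range of all genes tested in bins of GC content, and the 8 genes as fitted (filled) and after the correction (open). The median of all genes falls from left to right as fitted and is nearly flat after the correction, and *Slc12a1* moves from 0.52 to 0.43 and *Cdh16* from -0.23 to -0.14.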

How the data were processed

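Whole-kidney RNA of 3 Control and 3 KSPAPN pools was oligo(dT)-enriched and sequenced by the authors, who deposited raw read counts per gene and FPKM. The submitters' processing notes name STAR 2.5, TopHat, HTSeq 0.6.1, DESeq2 and edgeR, without roles. Which build, annotation and strand setting were used for counting is not given in the sources used here. Symbols and coordinates came from GENCODE M21 (GRCm38), which held 54495 of the 54532 identifiers.

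Counts were fitted with edgeR 4.0.16 in R 4.3.3, with TMM factors, its filter (minimum count 10, minimum total 15), the two-sided quasi-likelihood test and Benjamini-Hochberg adjustment over 16017 genes. FPKM and ratios of FPKM were compared by exact permutation over 20 arrangements (SciPy 1.17.1). Figures were drawn with matplotlib 3.10.9. Alternatives were DESeq2 1.42.0, RLE factors, total counts only, TMM without mitochondrially encoded genes and *Adipoq*, no filter, limma 3.58.1 on log2(FPKM + 1) and log2(FPKM + 0.1), the replicate number as a block, a correction of each library for GC content and length (natural splines, 5 degrees of freedom, genes above a log2 CPM of 3), both together, and each library left out. edgeR and DESeq2 were tested on simulated counts.

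The 8 genes and the lists were chosen with earlier results of these data known. Named are the 8 genes, listed genes with an unadjusted p under 0.05, *Adipoq*, *Cldn10*, *Cldn14*, *Egf*, *Cdh1*, *Cdh13*, *Cdh17*, *Slc12a3*, *Aqp2*, *Aqp3*, *Slc34a1* and *Nphs1*, and the 5 genes most like *Cdh16* and *Slc12a1*. Some genes that this rule covers are not reported here. No protein sequence was used here. Reads carry no molecular identifiers.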

Additional observations from a re-analysis of the deposited data

How the results depend on the processing

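The estimate for *Slc12a1* kept its direction in all 16 alternatives, between 0.42 and 0.59 on the log2 scale, and its call in 7 (adjusted p from 9.16e-05 to 0.193). The call was lost with limma on log2(FPKM + 1) (0.51, adjusted p = 0.0775) and on log2(FPKM + 0.1) (0.51, 0.0759), with the GC and length correction (0.43, 0.0829) and with the replicate block and that correction together (0.42, 0.0651), and the number of the 8 genes called was then 0. It was also lost without any 1 of 5 libraries, as given above. *Cdh16* kept its direction and was called in none. Estimates of *Umod* turned to 0.030 with total counts only, 0.021 with the correction and 0.0029 with block and correction, and that of *Cldn19* to 0.025 with total counts only. With each library left out, the ranges were 0.45 to 0.59 for *Slc12a1*, -0.25 to -0.18 for *Cdh16*, -0.20 to 0.078 for *Umod*, 0.025 to 0.13 for *Kcnj1*, -0.11 to -0.059 for *Bsnd*, 0.056 to 0.35 for *Cldn16*, -0.15 to 0.11 for *Cldn19* and -0.28 to -0.091 for *Casr*, and 0 to 1 of the 8 genes was called. The median of the 8 genes lay between -0.11 and 0.047, that of the other thick ascending limb genes between -0.036 and 0.058 (0.091 with total counts only) and that of the injury genes between -0.23 and 0.38. The medians ranged from -0.13 to 0.40 for adipocyte, -0.30 to 0.34 for hepatocyte and -0.17 to 0.12 for immune genes, 0.13 to 0.22 for the other cadherins and -0.095 to 0.013 for the transcription factors, and those of the other kidney segments are given above.

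Of the other thick ascending limb genes 1 was called in the main analysis, 4 with DESeq2, 4 without the filter, 4 with the replicate block, 0 with the correction and 0 to 2 with a library left out. Over all genes, 63 were higher and 361 lower in the main analysis. The counts were 180 and 743 with DESeq2, 71 and 195 with total counts only, 301 and 1038 without the filter, 10 and 118 with limma on log2(FPKM + 1), 10 and 109 on log2(FPKM + 0.1), 224 and 705 with the replicate block, 129 and 588 with block and correction, and 5 to 162 and 34 to 571 with a library left out. *Slc7a13* lost its call under both limma fits and without Control replicates 1 or 2 or KSPAPN replicate 3 (adjusted p = 0.113, 0.077 and 0.0972 by edgeR). *Slc22a6* lost it under both limma fits, with total counts only (0.0521) and without any library but KSPAPN replicate 1 (0.0819 to 0.144). The causes were not tested.

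Same-numbered libraries deviated together with r of 0.0537, 0.154 and 0.173, not all above 0.1, and other pairs with -0.18 to 0.021, so the number was not treated as a pairing, although every library correlated best with its own number. With the replicate block *Slc12a1* was at 0.52 (adjusted p = 0.033) and no other of the 8 genes was called. The ratio of *Casr* to *Cldn14* was not computed because *Cldn14* was at 0 in 2 libraries. With 3 pools a group no exact permutation p can be under 0.1, and *Cldn16* had the fewest reads of the 8 genes.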
